A study of Mus musculus with 5 samples.

Results

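Embryonic stem (ES) cells of the mouse line R1 were compared with Neuro2A cells, a mouse neuroblastoma line, using single cells caught in wells and read by tagged reverse transcription. The comparison takes 4 of the 5 plates of the series, 3 of ES cells and 1 of Neuro2A cells, each labelled as 96 cells. Neither group is labelled with a gene change or a drug. The labels describe the ES material as spheres derived from embryonic stem cells, and the Neuro2A cells as grown in DMEM with serum and 2-mercaptoethanol. The ES medium is given only by a citation, so cell type and culture cannot be told apart. Of the wells, 93, 66 and 94 on ES plates 1, 2 and 3 and 86 on the Neuro2A plate held at least 1000 reads on gene features and were kept, 339 of the 431 kept wells of the series. Whether the 3 ES plates hold separate cultures is not stated in the labels. Neuro2A had 1 plate, so line and plate cannot be told apart.

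In this assay a single cell is lysed in its well, the reverse transcriptase adds a barcode of 5 bases as it switches templates, and the cells of a plate are then pooled and amplified in 1 tube. Reads were deposited as counts for each feature and barcode, with no molecular identifier named, so amplification copies count as reads. ES cells are known for a short first gap phase of the cell cycle and for rapid division, and for growth as tight epithelial colonies. They are also known for heavy use of glucose and threonine. Neuroblastoma lines arise from the sympathetic branch of the neural crest, divide without limit and keep neuronal traits. The groups described here lie mostly beyond the pluripotency and neuronal genes that define the 2 lines, and a list of each served as a check of the labels. All 3 ES plates lay above Neuro2A for 22 of 23 tested pluripotency factors and below it for 19 of 24 neuronal and neuroendocrine genes. The defining genes Sox2 (1121, 769 and 445 CPM in ES plates 1, 2 and 3, no read in Neuro2A) and Gata2 (0, 8.71 and 4.57 CPM, against 179 in Neuro2A) followed the labels. Stmn2 overlapped, at 269, 343 and 208 CPM in the ES plates and 336 CPM in Neuro2A.

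Depth differed widely. The plates held 11434036, 277068 and 2135379 gene reads for ES plates 1, 2 and 3 and 3160286 for Neuro2A. On ES plate 2 repeat features took 82.4% of all reads, against 24.6% to 40.0% on the other 3, and 1 well held 25.9% of the kept gene reads. The same 96 barcodes were used on all plates. On ES plate 3 the genes specific to the embryonic fibroblast (MEF) plate of the series stood at a median of 10.8% of their MEF reads, and those specific to Neuro2A at 1.82% of their Neuro2A reads. Both medians were 0 on ES plate 1. The 20 fibroblast markers summed to 0.565, 124.8 and 4047 CPM on ES plates 1, 2 and 3 and to 138.4 CPM on the Neuro2A plate, against 44147 CPM on the MEF plate. Primitive endoderm markers summed to 163, 743 and 1676 CPM on the ES plates, 522 CPM in Neuro2A and 12344 CPM on the MEF plate. Of 9 tested, 2 lay above and 2 below Neuro2A in every ES plate. Macrophage markers summed to 4.69, 31.9 and 35.2 CPM on the ES plates and 0.322 CPM in Neuro2A. Endothelial markers summed to 1.29, 113.2 and 32.5 against 1.29 CPM. In bulk sums of this kind, fewer cells expressing a gene and less RNA per cell cannot be told apart.

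Levels are counts per 1000000 gene reads (CPM) after scaling by trimmed mean of M values, and are listed in the order ES plate 1, 2 and 3. A floor of 3 reads equals 0.242, 8.71 and 1.37 CPM on these plates and 0.966 CPM on the Neuro2A plate. Of 12271 genes tested, all 3 ES plates lay above Neuro2A for 3540 (28.8%) and below it for 3448 (28.1%). A gene was called 4-fold apart when it reached 50 CPM in the higher group and every ES plate differed from Neuro2A at least 4-fold in the same direction, with values under the floor raised to it. By this rule 647 genes (5.27%) were higher and 657 (5.35%) lower in ES cells. Among the 3985 genes with a mean of 50 CPM or more over the 4 plates, 33.3% were above and 37.8% below Neuro2A in every ES plate, and 12.4% were 4-fold higher and 7.43% lower. The plot of ES against Neuro2A levels shows both sets.

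**Figure D1:**
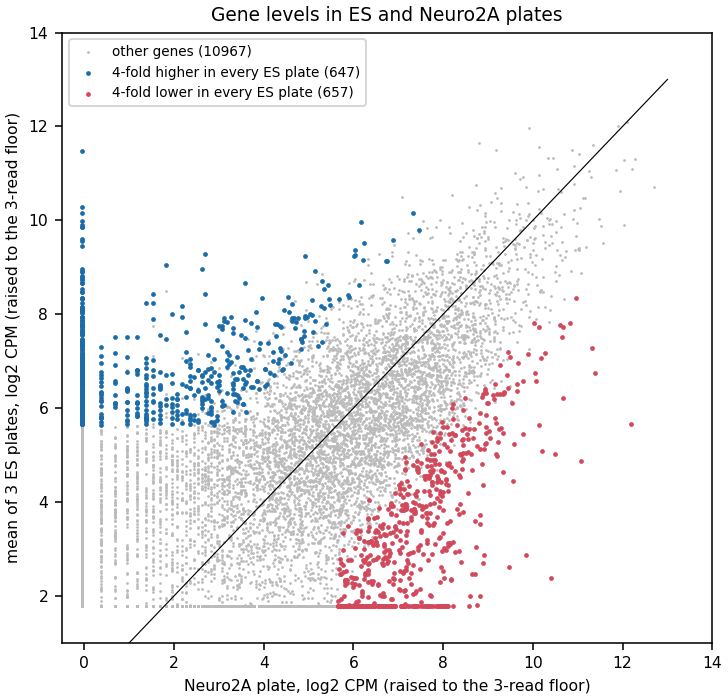
Mean level of each tested gene in the 3 ES plates (vertical) against its level in the Neuro2A plate (horizontal), both as log2 CPM raised to the 3-read floor. Blue points are the 647 genes at least 4-fold higher in every ES plate, many of them on the Neuro2A floor, and red points the 657 at least 4-fold lower; the line marks equal levels.

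edgeR's quasi-likelihood test over the 12271 genes called 0 genes in either direction at an adjusted p under 0.05 (0% of those tested), with 1028 higher (8.38%) and 497 lower (4.05%) at an unadjusted p under 0.05. Its smallest adjusted p was 0.18, with 2 residual degrees of freedom, which the ES plates alone supply, and a coefficient of variation between plates of 122%. By DESeq2, 1077 genes (8.78%) were higher in ES cells at an adjusted p under 0.05 and 163 (1.33%) lower. These shares are of all 12271 genes, of which 2855 had no DESeq2 adjusted p and could not be called. By limma-voom there were 0 either way. An exact permutation test of 3 plates against 1 cannot give a two-sided p below 0.25. The differences below are therefore given as plate values and as counts against these shares, and none passed edgeR's adjusted threshold. Among the 4-fold genes, 556 of the 647 higher and 153 of the 657 lower were also called by DESeq2.

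Gene lists separated widely around the background. The share of tested members with every ES plate above Neuro2A ran highest, among lists with 10 or more tested members and after the pluripotency factors, for DNA replication (32 of 40), chromatin remodelling complexes (16 of 25) and glycolysis (14 of 23). Among the same lists, members below Neuro2A were most frequent, after the neuronal genes, for histones and histone variants (14 of 25). The median log2 difference over the tested genes was 0.72 in favour of ES cells. Each group was raised to its floor, and 789 genes at or under both floors were left out. The floor was 3.44 CPM for the ES mean and 0.966 CPM for Neuro2A. A gene under the ES floor and below 3.44 CPM in Neuro2A thus counts as higher in ES cells. List medians are to be read against the median over all genes and with that limit. Several lists split near the background shares, such as Polycomb genes (30.4% above, 34.8% below), Wnt and Notch genes (32.3% and 29.0%) and lysosomal genes (32.4% and 38.2%). For such lists the counts below describe single genes and no lean of the list. The bars for each list with 10 or more tested members are shown with the shares over all genes.

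**Figure D2:**
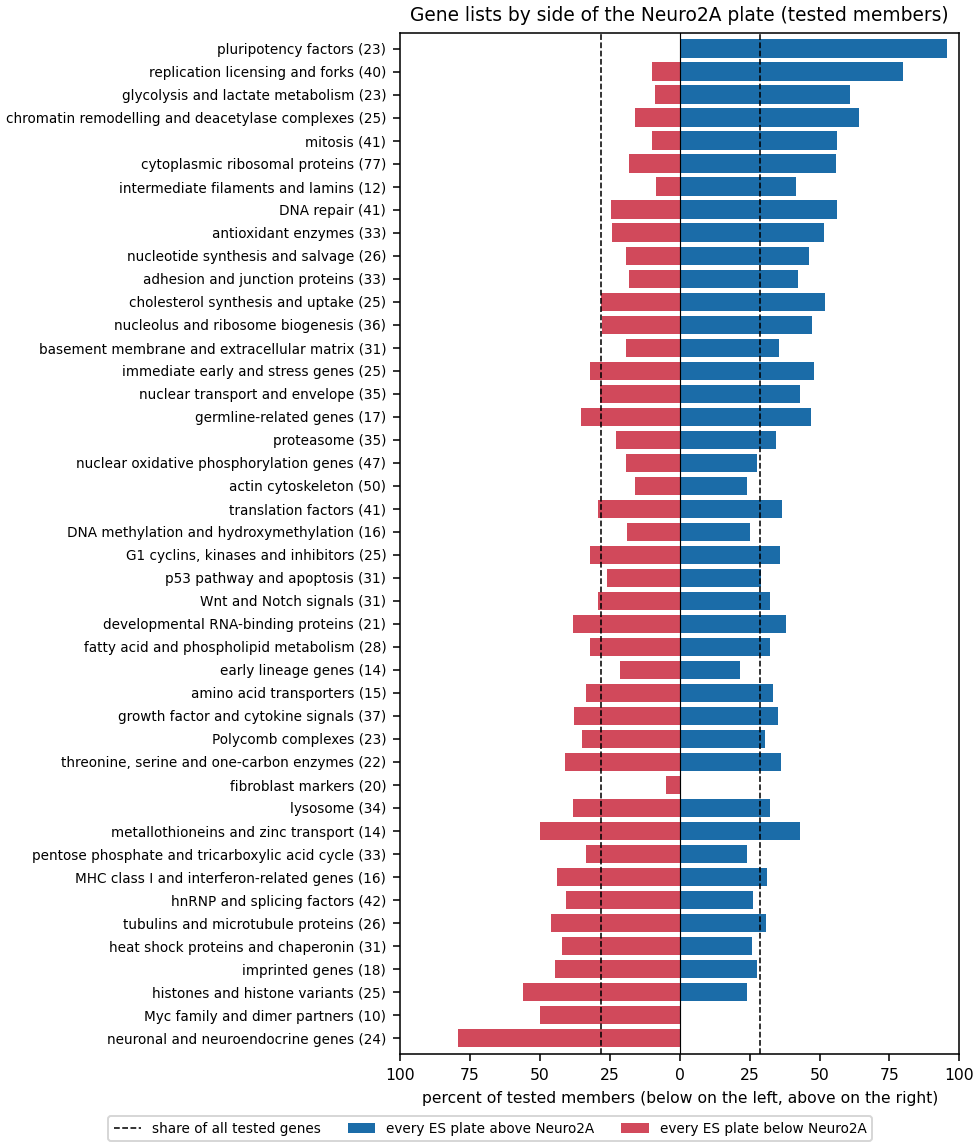
Percent of tested members of each gene list (number tested in brackets) with every ES plate above Neuro2A (blue, right) or below it (red, left); dashed lines mark the shares over all 12271 tested genes, 28.8% and 28.1%. Replication genes reach 80.0% on the right and histones 56.0% on the left.

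Zinc handling gave some of the widest differences. Metallothioneins are small proteins that bind zinc and copper. Mt1 stood at 769.9, 711 and 1368 CPM in the ES plates, a mean of 949.8 ± 364 (SD, n = 3), and at 0.966 CPM, 3 reads, in Neuro2A. Mt2 stood at 1337, 885 and 1186 CPM in the ES plates, a mean of 1136 ± 230.1 (SD, n = 3), and had no read in Neuro2A. That makes it at least 1177-fold higher in ES cells (edgeR adjusted p 0.18). edgeR's log2 difference for Mt2 was 15.15, with an SE of 1.57 worked back from the test's F value. With no read in Neuro2A, that difference is not a measured fold. The 3 ES plates were close to each other for both genes, and none came near Neuro2A. Zinc exporters lay on the opposite side. Slc30a1, which moves zinc out through the plasma membrane, stood at 0, 52.3 and 98.3 CPM in the ES plates and 1121 CPM in Neuro2A, and was 22.3-fold higher in Neuro2A than in the ES mean. Slc30a5, which carries zinc into the secretory pathway, stood at 23.7, 113 and 70.9 CPM against 740.0 CPM. In Neuro2A the reads of Slc30a1 and Slc30a5 came from 52 and 53 of the 86 wells. Among the importers, Slc39a6 was lower in ES cells (0, 40.6 and 41.1 CPM against 198) and Slc39a14 was higher (77.9, 31.9 and 44.8 CPM against 4.51). Of the 14 tested members, 6 were above and 7 below Neuro2A in every ES plate, 3 of them 4-fold each way.

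Metallothionein genes and Slc30a1 are known targets of the zinc-sensing factor Mtf1, which binds the metal response element. The promoters of these 3 genes are shown because their transcripts lay on opposite sides of the comparison. Each run covers 250 bases before to 30 bases after the gene's start in RefSeq's table for GRCm38.p6, with matches to the core of the element (TGCACNC or TGCGCNC, either strand) in capitals. The authors' own build is not given in the sources used here.
Mt1 (chr8:94178839-94179118, plus strand): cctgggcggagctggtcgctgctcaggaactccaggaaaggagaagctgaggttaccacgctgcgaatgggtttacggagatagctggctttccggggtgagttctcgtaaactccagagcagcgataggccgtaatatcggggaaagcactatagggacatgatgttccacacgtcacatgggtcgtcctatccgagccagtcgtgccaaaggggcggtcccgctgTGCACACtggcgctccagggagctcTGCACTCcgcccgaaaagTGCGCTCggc
Mt2 (chr8:94172368-94172647, plus strand): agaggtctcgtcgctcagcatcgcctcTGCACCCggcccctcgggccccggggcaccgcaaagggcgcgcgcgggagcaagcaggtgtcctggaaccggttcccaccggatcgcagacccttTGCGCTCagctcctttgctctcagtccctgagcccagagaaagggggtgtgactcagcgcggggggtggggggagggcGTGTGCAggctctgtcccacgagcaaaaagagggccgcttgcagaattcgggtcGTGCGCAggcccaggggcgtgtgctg
Slc30a1 (chr1:191906531-191906810, plus strand): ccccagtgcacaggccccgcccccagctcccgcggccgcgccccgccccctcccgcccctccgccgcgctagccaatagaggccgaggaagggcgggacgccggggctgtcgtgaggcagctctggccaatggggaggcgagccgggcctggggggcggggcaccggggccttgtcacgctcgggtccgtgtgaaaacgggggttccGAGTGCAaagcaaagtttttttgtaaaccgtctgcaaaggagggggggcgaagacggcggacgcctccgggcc
The core occurred 3 times in the Mt1 window, 4 times in Mt2 and once in Slc30a1. It is a short motif: 24.1% of all 32851 promoter windows of this length in the table, and 26.6% of the genes in it, held at least 1 match, beside 6 of the 14 zinc genes found there. The match is a description of the letters and not a binding site.

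DNA replication genes were higher in ES cells more often than those of any other list with 10 or more tested members outside pluripotency. Of 40 tested, 32 lay above Neuro2A in every ES plate and 4 below, with a median log2 difference of 1.62, and 8 were 4-fold higher. Mcm5, a subunit of the replicative helicase, stood at 53.2, 165 and 161 CPM and had no read in Neuro2A, at least 131-fold higher in ES cells. Cdc6, which loads that helicase at origins, stood at 86.9, 75.5 and 71.3 CPM, at least 80.7-fold above Neuro2A, where it had no read. Orc1l, the largest subunit of the origin recognition complex, stood at 86.7, 98.7 and 95.6 CPM and Pola1, the catalytic subunit of the priming polymerase, at 202, 148 and 94.6 CPM, both without a read in Neuro2A. Cdt1, the partner of Cdc6, stood at 195, 235 and 219 CPM against 20.6 CPM. Not all of the machinery differed this far. Mcm2 was above Neuro2A by less than 2-fold on every ES plate (219, 226 and 332 CPM against 170.0), the sliding clamp Pcna overlapped (625, 90.0 and 123 CPM against 108), and the origin subunit Orc4l was lower in ES cells (49.3, 20.3 and 48.5 CPM against 233), as was Rpa3 of the single-strand binding complex (107, 31.9 and 53.5 CPM against 205).

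E2F factors drive many replication genes, and their site can be read in several of these promoters. The 3 shown belong to genes without a read in Neuro2A, with matches to TTTCCCGC or TTTGGCGC on either strand in capitals, over the same window and build.
Cdc6 (chr11:98907901-98908180, plus strand): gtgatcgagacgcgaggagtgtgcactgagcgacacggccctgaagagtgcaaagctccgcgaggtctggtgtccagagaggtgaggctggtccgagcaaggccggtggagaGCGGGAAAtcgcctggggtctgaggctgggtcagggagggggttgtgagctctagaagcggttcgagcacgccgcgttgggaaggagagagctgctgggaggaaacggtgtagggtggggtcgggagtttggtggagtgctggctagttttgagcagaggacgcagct
Mcm5 (chr8:75109259-75109538, plus strand): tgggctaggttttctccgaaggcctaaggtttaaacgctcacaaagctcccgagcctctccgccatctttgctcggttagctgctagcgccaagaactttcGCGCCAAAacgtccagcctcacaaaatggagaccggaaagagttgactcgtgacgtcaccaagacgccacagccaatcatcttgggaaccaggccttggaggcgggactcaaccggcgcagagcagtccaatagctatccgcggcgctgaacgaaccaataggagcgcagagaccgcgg
Pola1 (chrX:93632126-93632405, minus strand): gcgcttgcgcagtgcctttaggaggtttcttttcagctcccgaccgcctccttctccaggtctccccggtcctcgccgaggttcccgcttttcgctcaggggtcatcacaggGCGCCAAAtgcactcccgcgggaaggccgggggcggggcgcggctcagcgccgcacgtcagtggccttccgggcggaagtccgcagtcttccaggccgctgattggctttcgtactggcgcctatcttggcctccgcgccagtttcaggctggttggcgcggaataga
Of the 33 replication genes found in the table, 8 held a match: Mcm3, Mcm5, Mcm6, Mcm7, Cdc6, Orc3l, Rfc3 and Pola1. Over all promoters held there, 1.68% of genes and 1.46% of windows did. Among mitosis genes 1 of 34 had a match, Ncapd2, among DNA repair genes 5 of 32, and among glycolysis genes 0 of 22. The Cdc6, Mcm5 and Pola1 windows were chosen after their values were seen, and the absence of these letters elsewhere says nothing of E2F binding.

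Mitotic and repair genes leaned the same way. Of 41 tested mitosis genes, 23 were above and 4 below Neuro2A in every ES plate, with a median log2 difference of 1.00, and 7 were 4-fold higher. Tacc3, a spindle protein, stood at 151, 90.0 and 88.2 CPM against 1 read in Neuro2A, the spindle protein Nusap1 at 382, 186 and 419.7 CPM against 23.2, and the motor Kif11 at 193, 145 and 107 CPM against 20.9. The checkpoint kinase Bub1 was the other way round (98.0, 87.1 and 46.2 CPM against 220.5), and so were Bub3 and the centriole kinase Plk4. Of 41 DNA repair genes, 23 were above and 10 below, with a median of 1.83. Msh6, which recognises mismatched bases, was higher in ES cells (392, 165 and 402 CPM against 2 reads). Brca2, which acts in the repair of broken ends, was 4-fold higher in every ES plate (230.2, 180.0 and 272 CPM against 9.01), while Brca1 was lower (127, 92.9 and 84.1 CPM against 247).

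Cyclins of the first gap phase differed from member to member. The 25 tested genes split 9 above and 8 below Neuro2A. Ccnd3 stood at 269, 87.1 and 626 CPM with no read in Neuro2A, whereas Ccnd1, another D-type partner of Cdk4, was lower in ES cells (5.49, 72.6 and 30.2 CPM against 151). The E-type cyclins, which activate Cdk2, divided in the same manner. Ccne1 stood at 127, 78.4 and 105 CPM against 1 read in Neuro2A, and Ccne2 at 0, 0 and 24.7 CPM against 427. Cdk2 itself stood at 298, 221 and 125 CPM against 8.37, and was 25.7-fold higher in the ES mean. The retinoblastoma gene Rb1 was lower in ES cells (1.21, 14.5 and 17.4 CPM against 81.8), with 86.2% of its Neuro2A reads in 1 well. Myc, a driver of growth genes, was lower in all ES plates (44.3, 66.8 and 135 CPM against 803), 9.79-fold below Neuro2A, where 60 wells held a read. Of the 10 tested Myc family genes, 5 were below and 0 above.

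Genes of the p53 pathway were mixed, at 9 (29.0%) above and 8 (25.8%) below of 31 tested, near the 28.8% and 28.1% of all tested genes. Trp53 itself stood at 287, 165 and 274 CPM against 24.8 CPM, and its target Trp53inp1 at 385, 389 and 577 CPM against 2 reads in Neuro2A. The death effector Bax stood at 69.6, 34.8 and 221 CPM against 3 reads, and the cell cycle inhibitor Cdkn1a at 21.0, 49.3 and 240.5 CPM against 2.58, with its highest value on ES plate 3, where fibroblast reads were also highest; without that plate it no longer met the 4-fold rule, and with the MEF reads subtracted it still did. Casp8, which starts death from surface receptors, was lower in ES cells (0, 0 and 15.5 CPM against 118).

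Transcripts of glucose uptake and of glycolysis were more abundant in ES cells. Of 23 tested genes, 14 were above and 2 below Neuro2A in every ES plate, with a median log2 difference of 2.21, and 7 were 4-fold higher. The glucose carriers Slc2a1 (379, 163 and 214 CPM against 33.8) and Slc2a3 (576, 528 and 352 CPM, mean 485 ± 118 (SD, n = 3), against 35.4) were both among the 7, 7.45 and 13.7 times the Neuro2A level in the ES mean. Hexokinase 2, Hk2, stood at 288, 249.7 and 451 CPM against 59.5, and the isomerase Tpi1 at 173, 154 and 226 CPM against 29.6. With every well given equal weight, Slc2a1, Hk2 and Tpi1 missed the 4-fold rule. Ldhb, the lactate dehydrogenase chain of oxidative tissues, had no read in Neuro2A and 305, 200.3 and 128 CPM in the ES plates, at least 219-fold more. Its counterpart Ldha overlapped (332, 194 and 599.8 CPM against 475). Pdk1, which shuts pyruvate out of the mitochondrion by blocking pyruvate dehydrogenase, stood at 186, 218 and 148 CPM against 2.25. The monocarboxylate carrier Slc16a1 and its chaperone Bsg overlapped between the lines.

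In the oxidative branch of the pentose phosphate pathway, which makes NADPH, G6pdx (62.8, 49.3 and 48.5 CPM against 5.47) and Pgd (132, 116 and 175 CPM against 22.2) were higher in every ES plate. In the branch that rearranges sugars, Tkt was higher (87.1, 72.6 and 176 CPM against 2.90), but the isomerase Rpia was lower (0, 17.4 and 1.83 CPM against 80.1, 57.8% of it in 1 well). Some enzymes of the tricarboxylic acid cycle were lower in every ES plate: citrate synthase Cs stood at 84.9, 66.8 and 162 CPM against 195, Idh3a at 113, 87.1 and 129 CPM against 326 and Mdh1 at 194, 148 and 235 CPM against 453. The NADP-dependent dehydrogenases Idh1 and Idh2 lay above Neuro2A in every ES plate, Idh1 at 96.7, 52.3 and 134 CPM against 12.2. Over the pentose phosphate and tricarboxylic acid list of 33, 8 were above and 11 below. The 47 nuclear genes of oxidative phosphorylation had a median of 0.20, with 13 above, 9 below and 25 overlapping, and Atp5b, among the most highly read of them, stood at 1519, 1283 and 1843 CPM against 1569.

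**Figure D3:**
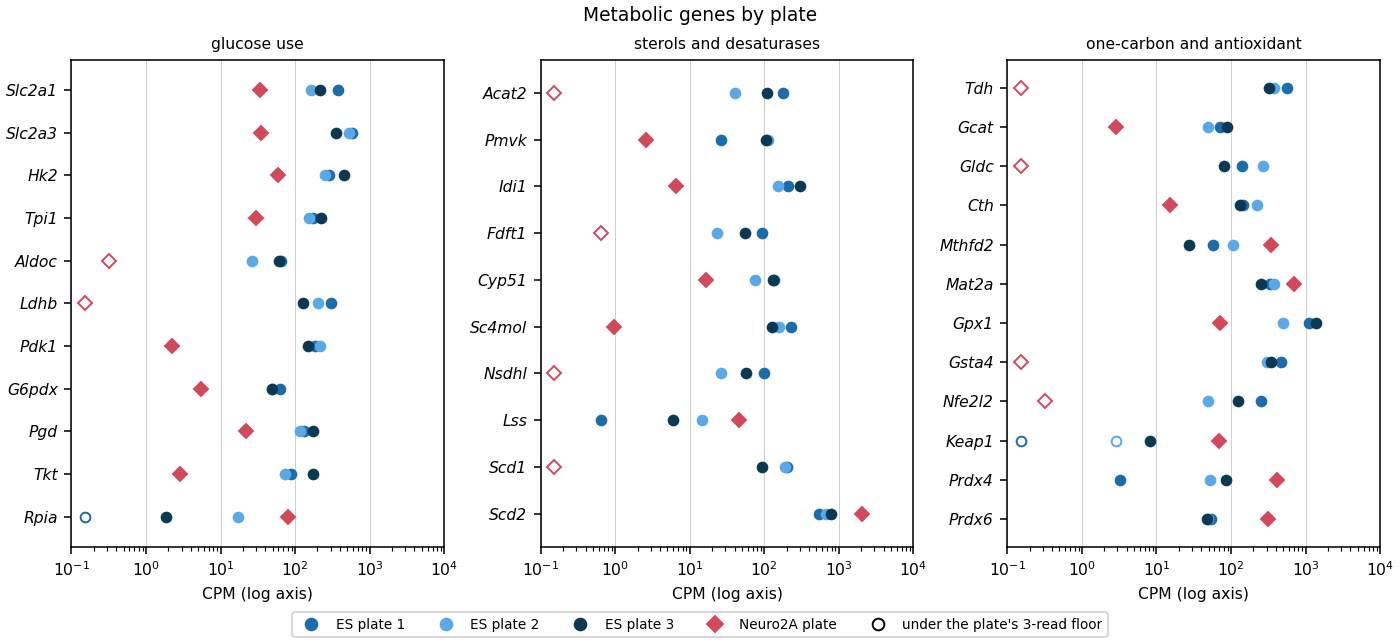
Level of metabolic genes in each plate, in CPM on a log axis; circles are ES plates, red diamonds Neuro2A, and open symbols lie under the plate's 3-read floor, with 0 drawn at the left edge of the points. The glucose and sterol genes at the top of each panel have all 3 ES plates to the right of Neuro2A, and Rpia, Lss, Scd2, Mthfd2, Mat2a, Keap1, Prdx4 and Prdx6 have them to the left.

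Cholesterol synthesis genes lay on both sides of Neuro2A. Of 25 tested genes, 13 were above and 7 below Neuro2A in every ES plate, and 8 were 4-fold higher and 0 lower. The 8 covered the first step, by Acat2 (178, 40.6 and 107 CPM, no read in Neuro2A), the isoprenoid steps of Pmvk and Idi1, squalene synthase Fdft1, and the sterol demethylation steps. Idi1, the isopentenyl isomerase, stood at 207, 151 and 302 CPM against 6.44, and Sc4mol, the sterol methyl oxidase, at 230.3, 157 and 128 CPM against 3 reads. Cyp51, the lanosterol demethylase, stood at 133, 75.5 and 131 CPM against 16.4. Against these, the cyclase Lss was lower in ES cells (0.646, 14.5 and 5.94 CPM against 45.7), as were the regulators Srebf1 (19.2, 26.1 and 37.9 CPM against 82.7) and Insig2 (0, 5.81 and 33.8 CPM against 114).

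Among lipid genes the 2 stearoyl desaturases, which put the double bond into saturated fatty acids, were used differently. Scd1 stood at 199, 189 and 92.8 CPM with no read in Neuro2A, at least 166-fold higher in ES cells, while Scd2 stood at 546, 673 and 780.4 CPM against 2070.3 CPM, 3.11-fold higher in Neuro2A. Acsl4, which activates arachidonate, was the member with the highest Neuro2A level, 2679 CPM against 103, 26.1 and 192 CPM in the ES plates. The fatty acid binding protein Fabp3 (189, 215 and 665 CPM, no read in Neuro2A) and the lipoprotein Apoe (183, 253 and 777 CPM against 11.9) were higher in every ES plate, both highest on ES plate 3. With the MEF reads taken out of ES plate 3, the counts of 4-fold genes kept 642 of the 647 higher genes.

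Mouse ES cells are known to depend on threonine breakdown, and 3 of its genes and of glycine cleavage were read in ES cells with few or no reads in Neuro2A. Tdh, threonine dehydrogenase, stood at 571, 374 and 326 CPM, a mean of 424 ± 129.6 (SD, n = 3), and had no read in Neuro2A, at least 439-fold higher in ES cells. Gcat, which completes the split to glycine, stood at 70.5, 49.3 and 89.2 CPM against 2.90, and Gldc, which cleaves glycine for one-carbon units, at 142, 273 and 81.4 CPM with no read. The mitochondrial folate enzyme Mthfd2 went the other way (57.7, 107 and 27.0 CPM against 343), with Mat2a, which makes the methyl donor S-adenosylmethionine (333, 380.3 and 253 CPM against 708). Of the 22 tested genes of this list 8 were above and 9 below, with a median log2 difference of 0.00. Among 26 genes of nucleotide synthesis 12 were above and 5 below. The purine enzymes Gart (64.1, 116 and 158 CPM against 2.25) and Paics (938, 398 and 579 CPM against 148) were higher in ES cells, and Ppat, which commits to the pathway, was lower (429, 357 and 421 CPM against 805). Amino acid carriers split 5 and 5 of 15, with Slc38a2 at 539.5, 479 and 382 CPM against 2154 and Slc7a6 at 0, 8.71 and 34.3 CPM against 316.

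Antioxidant genes differed in both directions, with 17 of 33 above and 8 below Neuro2A, of which 5 were 4-fold higher and 4 lower. Nfe2l2, the factor that drives many of these genes, stood at 254, 49.3 and 124 CPM against 1 read in Neuro2A, and its inhibitor Keap1 was lower in ES cells (0, 2.90 and 8.23 CPM against 68.9, 54.7% of it in 1 well). The glutathione peroxidase Gpx1 stood at 1119, 502 and 1384 CPM against 72.1, 13.9 times the Neuro2A level, and the glutathione transferase Gsta4 at 471, 305 and 342 CPM with no read in Neuro2A. Nqo1, a quinone reductase and known Nfe2l2 target, had 112, 14.5 and 53.5 CPM and no read. Hmox1, another known target, was lower in ES cells (5.33, 14.5 and 11.9 CPM against 90.1), with 76.8% of its Neuro2A reads in 1 well. The peroxiredoxins also divided: Prdx1 was higher (1737, 1187 and 1643 CPM against 569), and Prdx4 (3.23, 52.3 and 86.0 CPM against 412) and Prdx6 (53.4, 49.3 and 47.5 CPM against 318) were lower.

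Chromatin genes differed by class. Remodelling and deacetylase complexes had 16 of 25 above and 4 below, with a median log2 difference of 0.92. The ATPase Smarca4 stood at 29.0, 40.6 and 82.8 CPM against 1 read in Neuro2A, and the deacetylase Hdac1 at 96.7, 52.3 and 28.3 CPM against 4.83, while its close relative Hdac2 overlapped (530.4, 363 and 257 CPM against 283). Arid1a, a subunit of the Smarca4 complex, was lower in ES cells (243, 90.0 and 127 CPM against 587). Polycomb genes split 7 above and 8 below of 23. The methylation complex members Eed (501, 212 and 508 CPM against 59.5) and Suz12 (555, 401 and 284 CPM against 114) were above Neuro2A in every ES plate. Of the ubiquitin ligase complex, Phc1 was higher (359, 238 and 418 CPM against 59.2) and Bmi1 (0, 0 and 9.14 CPM against 242), Yaf2 (0, 0 and 41.6 CPM against 347) and Rnf2 (143, 92.9 and 175 CPM against 598) were lower. Of 16 DNA methylation genes, 4 were above and 3 below. Uhrf1, which guides methylation to new strands, stood at 338, 122 and 266 CPM against 30.3, and Cxxc6, the hydroxylase now called Tet1, at 150.1, 87.1 and 239 CPM with no read in Neuro2A.

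Histone and high-mobility-group genes leaned towards Neuro2A, 14 of 25 below and 6 above, with a median log2 difference of -1.05. The size of this median depended on the setting. With 1 ES plate left out it lay between -0.79 and -0.69. It was -0.57 with every well weighted equally and -0.41 without each gene's largest well. The linker histones H1f0 (59.4, 55.2 and 42.5 CPM against 253) and Hist1h1c (26, 0 and 20.6 CPM against 142) and the nucleosome binder Hmgn3 (0, 0 and 2.29 CPM against 206) were 4-fold lower in every ES plate. H3f3b, a replacement histone of the variant H3.3, was lower too (668, 560.3 and 829 CPM against 2326). On the other side were H2afx, the variant marked at DNA breaks (136, 171 and 219 CPM against 7.73), H2afz (1266, 740.2 and 1426 CPM against 486) and the architectural proteins Hmga1 (469, 157 and 354 CPM against 15.5) and Hmga2 (14.8, 52.3 and 84.1 CPM, no read in Neuro2A). Hmga2 was highest on ES plate 3, which carried the fibroblast reads, and missed the 4-fold rule once the MEF reads were subtracted and without ES plate 2 or 3. The reverse transcription was primed on poly(A), so the replication-dependent histone genes, whose mRNAs end in a stem-loop, are read only in part.

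**Figure D4:**
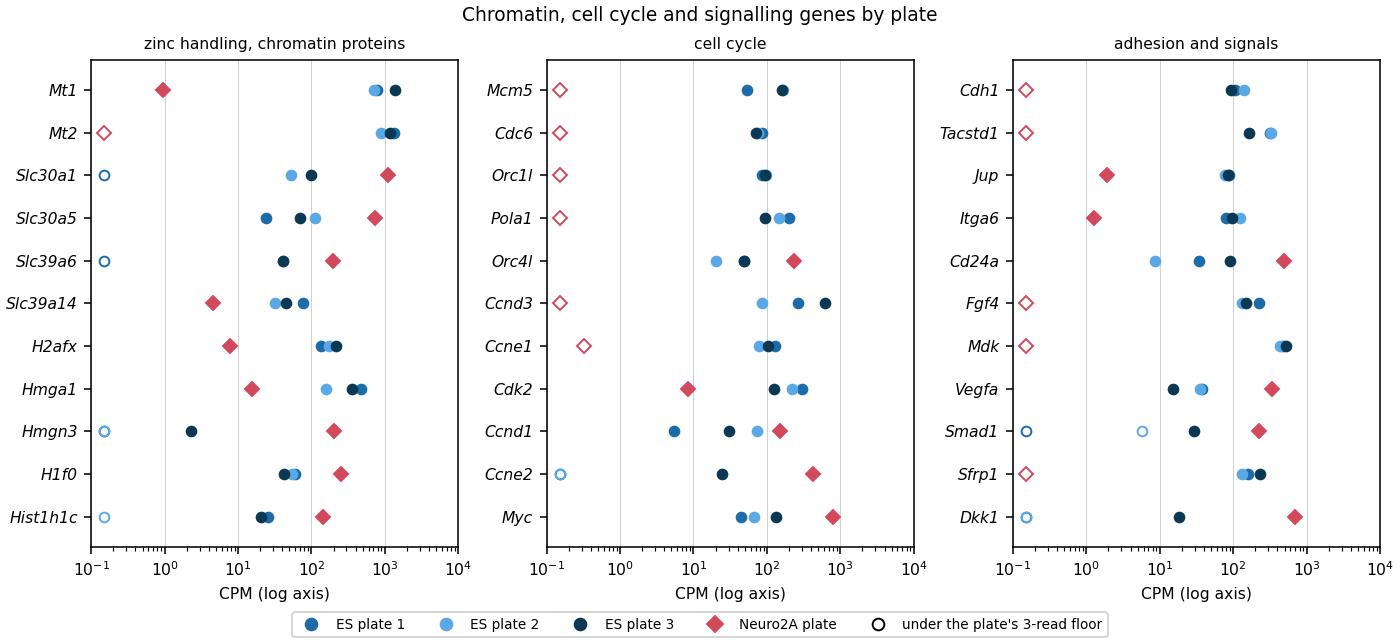
Level of genes of zinc handling, chromatin, the cell cycle, adhesion and signalling in each plate, in CPM on a log axis; circles are ES plates, red diamonds Neuro2A, and open symbols lie under the plate's 3-read floor, with 0 drawn at the left edge of the points. In each panel some genes of a shared process lie on opposite sides of Neuro2A, such as Mt1 and Slc30a1 in zinc handling, the cyclins Ccne1 and Ccne2, or the Wnt antagonists Sfrp1 and Dkk1.

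Protein synthesis genes were among the most highly read, and few were 4-fold apart. Of 77 cytoplasmic ribosomal protein genes 43 (55.8%) were above and 14 (18.2%) below. That leaned towards ES cells, beside 33.3% and 37.8% of genes with a mean of 50 CPM or more. The median log2 difference of the list was 0.63, near that of all genes, and 3 were 4-fold higher and 1 lower. Rpl34 was the gene 4-fold lower in ES cells (116, 95.8 and 75.0 CPM against 1069), with reads in 68 Neuro2A wells, while Rps21 (399.9, 316 and 1099 CPM against 64.7) and Rpl13 (294, 261 and 412 CPM against 51.5) were higher. These genes have many processed pseudogenes, and the labels do not say how reads matching several places were counted; the same holds for tubulins, histones, class I antigens and clustered families. Translation factors (15 above, 12 below of 41) included Eif3s8, a subunit of initiation factor 3 (259, 197 and 435 CPM against 24.8), and Eif4e, the cap-binding protein, which was lower in ES cells (186, 90.0 and 96.0 CPM against 435). Of 36 nucleolar genes 17 were above and 10 below. Gnl3l was lower (151, 151 and 134 CPM against 702), while its relative Gnl3, nucleostemin, overlapped (791, 279 and 914 CPM against 491).

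Splicing factors split 11 above and 17 below of 42 (26.2% and 40.5%). The shares above and below were 28.8% and 28.1% over all tested genes. Over genes with a mean of 50 CPM or more they were 33.3% and 37.8%. Ptbp2, the neuronal form of the polypyrimidine tract binding protein, stood at 66.6, 14.5 and 59.9 CPM against 602 CPM, and its widely expressed paralog Ptbp1 was higher in ES cells (453, 232 and 279.8 CPM against 143). Hnrph1 (223, 462 and 279.8 CPM against 1667) and Hnrpr (196, 192 and 205 CPM against 756) were lower, and Hnrpl was higher (454, 136 and 221 CPM against 21.9). Among RNA-binding proteins of development, Rbpms2 (445, 418 and 351 CPM), L1td1 (456, 151 and 678 CPM) and Igf2bp1 (168, 75.5 and 92.8 CPM) had no read in Neuro2A. Mbnl1, which promotes the splicing patterns of differentiated cells, was lower in ES cells (0.485, 17.4 and 59.4 CPM against 399), as was the stability factor Elavl1 (231, 136 and 145 CPM against 612).

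Chaperones and degradation genes showed few wide differences. Of 31 heat shock and chaperonin genes 8 were above and 13 below. Hspb1, a small heat shock protein, stood at 197, 128 and 884 CPM with no read in Neuro2A, and Hspa4l at 0, 5.81 and 2.29 CPM against 238. The endoplasmic chaperone Hspa5 (146, 226 and 541 CPM against 875) and the mitochondrial Hspd1 (823, 421 and 474 CPM against 1606) were lower, and Hsp90aa1 was higher (3317, 1213 and 1269.6 CPM against 875). Proteasome genes (12 above, 8 below of 35) had a median of 0.50, with Psmb2 the best-read gene of the 4-fold pair (273, 212 and 377 CPM against 38.9). Of 34 lysosomal genes 11 were above and 13 below. The protease Lgmn was lower in ES cells (155, 49.3 and 53 CPM against 701, 62 Neuro2A wells). Nuclear transport genes split 15 and 10 of 35, with the importin Kpnb1 lower (328, 206 and 351 CPM against 917) and the GTPase Ran higher (1398, 729 and 1416 CPM against 628).

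Several adhesion genes of epithelia were read in ES cells and had few or no reads in Neuro2A, while others were well read in both lines. Of 33 tested, 14 were above and 6 below, and 8 were 4-fold higher and 1 lower. The whole list summed to 4897, 3620 and 3970 CPM in the ES plates against 2668 CPM in Neuro2A. Its median log2 difference was 0.11, 3.17 and 2.83 on ES plates 1, 2 and 3, and the value on plate 2 is the log2 ratio of the 3-read floors of that plate and of Neuro2A. Cdh1, E-cadherin, stood at 105, 142 and 92.4 CPM, a mean of 113 ± 26 (SD, n = 3), and Tacstd1, the adhesion molecule now called Epcam, at 322, 322 and 165 CPM, both without a read in Neuro2A, at least 117 and 279 times the Neuro2A floor. Their cytoplasmic partners Jup (86.6, 78.4 and 84.6 CPM against 1.93) and Ctnnd1 (373, 189 and 103 CPM against 19.6) were higher, as was the laminin receptor chain Itga6 (79.3, 122 and 96.5 CPM against 1.29). Ctnnb1, which also serves Wnt signalling, overlapped (711, 636 and 762 CPM against 659). Cd24a, a surface glycoprotein, was lower in ES cells (33.8, 8.71 and 89.6 CPM against 495), as was the integrin chain Itgb1 (143, 49.3 and 365 CPM against 429).

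Members of the basement membrane lay on both sides of Neuro2A. Lama5 (149, 337 and 46.2 CPM), Lama1 (51.5, 63.9 and 49.8 CPM), Nid1 (176, 113 and 113 CPM) and Nid2 (217, 203 and 79.6 CPM) had no read in Neuro2A. The laminin chain Lamc1 was lower in ES cells (117, 116 and 122 CPM against 205), as was the collagen IV chain Col4a2 (2.83, 23.2 and 121 CPM against 233). Spp1, osteopontin, was the best-read matrix gene of the ES plates 1 and 2 (1481, 1138 and 427 CPM, no read in Neuro2A), at least 1051-fold higher. Of the 31 tested matrix genes 11 were above, 6 below and 6 4-fold higher. One of the 6, the collagen chaperone Serpinh1, was unevenly read (29.4, 8.71 and 186 CPM), highest on ES plate 3, which carried the fibroblast reads, and no longer met the rule once the MEF reads were subtracted. Of the cytoskeleton, the actin list overlapped for 30 of 50 genes. The actin monomer binder Pfn2, known from neurons, was lower (47.4, 29.0 and 20.6 CPM against 393) and Cfl1 higher (744, 404 and 468 CPM against 143). Tubulins and microtubule proteins split 8 above and 12 below of 26: Tuba4a stood at 222, 107 and 308 CPM with no read in Neuro2A, while the axonal motor Kif5c (0, 11.6 and 6.86 CPM against 249) and Dpysl2 (0.889, 37.7 and 36.6 CPM against 174) were lower. The lamins Lmna (43.9, 151 and 262 CPM against 3 reads) and Lmnb1 (38.6, 66.8 and 53.5 CPM, no read) were higher in ES cells.

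Signalling genes differed in both directions. Of 37 growth factor and cytokine genes 13 (35.1%) were above and 14 (37.8%) below, and 8 were 4-fold higher and 4 lower. The shares above and below lay near the 33.3% and 37.8% of genes with a mean of 50 CPM or more, so the list as a whole did not lean. The ligands Mdk (478, 438 and 523 CPM), Trh (392, 302 and 766 CPM), Lefty2 (365, 290.3 and 134 CPM) and Fgf4 (222, 134 and 150.0 CPM) had no read in Neuro2A, and Bmp4 (84.7, 78.4 and 181 CPM) had 1. Vegfa, the vessel growth factor, was lower in ES cells (38.0, 34.8 and 15.1 CPM against 342). The receptor Tgfbr1 (42.5, 20.3 and 35.2 CPM against 336) and the effector Smad1, which carries Bmp signals (0.0808, 5.81 and 29.3 CPM against 222), were lower as well, with Id4, a known Bmp target (0.404, 0 and 31.5 CPM against 182). Socs3, the feedback inhibitor of the Stat3 pathway, was higher (104, 105 and 99.7 CPM against 7.08), whereas Stat3 was lower (270.2, 488 and 325 CPM against 649.9).

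Secreted Wnt antagonists differed by gene. Sfrp1 stood at 161, 131 and 233 CPM with no read in Neuro2A, and Dkk1 stood at 0, 0 and 18.3 CPM against 705 CPM, with 52 Neuro2A wells. Dkk3 was also lower (14.7, 58.1 and 29.7 CPM against 285). The receptor Fzd5 was higher in ES cells (104, 319 and 231 CPM against 2 reads), and of 31 Wnt and Notch genes 10 were above and 9 below. Immediate early genes split 12 above and 8 below of 25, with Egr1 higher (40.8, 157 and 326 CPM against 3 reads) and Jun (0.0808, 2.90 and 40.2 CPM against 163), Ier5 (0, 14.5 and 11.4 CPM against 103) and the stress gene Ddit3 (2.67, 23.2 and 29.3 CPM against 121) lower.

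Class I antigens and interferon-related membrane proteins lay on opposite sides. H2-K1 (119, 20.3 and 26.1 CPM against 569), H2-D1 (0.0808, 0 and 26.5 CPM against 298) and the shared light chain B2m (47.4, 75.5 and 267 CPM against 644) were lower in ES cells. Ifitm1 (739, 409 and 445 CPM against 3.54, all 11 reads from 1 well) and Ifitm3 (330.5, 128 and 278 CPM against 4.51), which restrict virus entry, were higher. Of 16 tested genes 5 were above and 7 below. Imprinted genes split 5 and 8 of 18: the growth receptor Igf2r stood at 58.7, 52.3 and 166 CPM against 3.86, and the G protein locus Gnas at 1292, 975 and 2726 CPM against 6621. Of 17 germline-related genes 8 were above and 6 below, but the 4-fold rule picked 1 in favour of ES cells, Trap1a (98.1, 87.1 and 138 CPM, no read in Neuro2A), and 4 in favour of Neuro2A. Asz1, a protein of the germ cell piRNA pathway, stood at 0, 0 and 3.66 CPM against 379, and Xlr3b had no read in any ES plate and 252 CPM in Neuro2A, at least 73.3-fold more, from 34 wells. Among early lineage genes, Tbx3 (119.7, 441 and 345 CPM against 2.58) was higher and Sox4 (1.13, 20.3 and 32.9 CPM against 166) and Sox11 (0.162, 46.4 and 23.3 CPM against 197) were lower.

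Outside the lists, 147 named genes at 100 CPM or more in ES cells and 314 in Neuro2A met the 4-fold rule. The 12 with the largest smallest-plate ratio in favour of ES cells were Upp1, Pcdhg@, Spint2, Klf9, Syce2, Spink3, Mybl2, Rapgef1, Ptrf, Cenpm, Sdc4 and Jarid1b. Upp1, uridine phosphorylase, stood at 294, 314 and 462 CPM with no read in Neuro2A, at least 369-fold higher in ES cells (edgeR adjusted p 0.18). Its edgeR log2 difference of 13.48 (SE 1.64, worked back from the F value) is likewise not a measured fold. Spint2, a membrane protease inhibitor of epithelia, stood at 407, 197 and 301 CPM against 2 reads, and the cell cycle transcription factor Mybl2 at 151, 197 and 212 CPM with none. Jarid1b, a histone demethylase, stood at 261, 258 and 129 CPM against 2 reads. In favour of Neuro2A the 12 included Lrrn3, Hist1h1a, Parp8, Tmod2, Pcdha@, Bace2, Vgf, Tshz2, Nr1d2, Mtap7d2 and Mllt11. The clustered protocadherins, surface proteins that neurons use to tell cells apart, differed by cluster: the alpha cluster stood at 0, 17.4 and 134 CPM in the ES plates and 4675 CPM in Neuro2A (Pcdha@), and the gamma cluster at 489, 224 and 791 CPM with no read in Neuro2A (Pcdhg@). A single well held 89.1% of the gamma cluster's reads on ES plate 1 and 85.7% on ES plate 2, where 4 of 66 wells had a read. On ES plate 3 the highest well held 25.5%. The gamma cluster stood at 2835 CPM on the MEF plate, so its value on ES plate 3, which carried fibroblast reads, may be partly theirs. With the MEF reads subtracted the gamma cluster still met the 4-fold rule. Tmod2, a neuronal actin capping protein, stood at 2151 CPM in Neuro2A and 0, 58.1 and 29.3 CPM in the ES plates, and Nr1d2, a clock repressor, at 479 against 6.30, 0 and 15.5 CPM. Lrrn3 had the highest ratio, with 1350.0 CPM in Neuro2A against 0, 0 and 15.5 CPM, and 62.4% of its Neuro2A reads in 1 well.

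Single wells could carry a gene's plate total. Among the 657 genes 4-fold lower in ES cells, a median of 41.3% of the Neuro2A reads came from 1 well, and for 256 genes that well held over 50%. Leaving out each gene's largest well in every plate, 408 of the 647 higher genes (63.1%) and 368 of the 657 lower ones (56.0%) still met the rule. Of the genes named above, Cdc6, Smarca4, Hdac1, Hmga2, G6pdx, Cyp51, Fdft1, Nqo1, Lama1, Serpinh1, Lmnb1 and Slc39a14 among the higher, and Rb1, Rpia, Keap1, Hmox1, Jun and Gnl3l among the lower, then missed it. Slc30a1, Slc30a5, Myc, Rpl34, Lgmn, Dkk1, Xlr3b and Lrrn3 still met it. When each kept well was reduced to 1000 gene reads drawn at random, Mt2 was read in 58.1%, 56.1% and 54.3% of ES wells and 0% of Neuro2A wells. Slc30a1 was read in 0%, 3.03% and 7.45% of ES wells and 23.3% of Neuro2A wells. For Dkk1 these shares were 0%, 0% and 2.13% against 29.1%, and for Rpl34 10.8%, 12.1% and 9.57% against 44.2%. For these 4 genes the difference was spread over many wells. Scd2 was different: 29.0%, 48.5% and 45.7% of ES wells and 48.8% of Neuro2A wells held a read, so its share of wells did not separate the lines as its CPM did. All shares are given for the thinned wells of the plot, and unthinned counts of wells follow depth: Mt2 was read in 83 of 93, 54 of 66 and 87 of 94 ES wells, and Dkk1 in 52 of 86 Neuro2A wells.

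**Figure D5:**
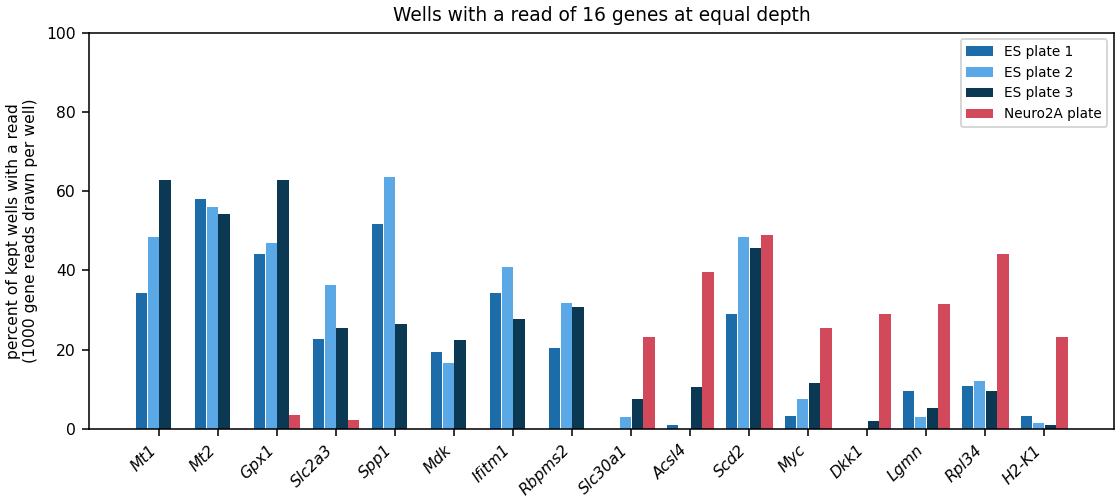
Percent of kept wells with at least 1 read of each of 16 genes after every well was reduced to 1000 gene reads; bars are the 3 ES plates (blue shades) and the Neuro2A plate (red). The 8 genes on the left are read in more wells of every ES plate, and those on the right, other than Scd2, in more Neuro2A wells.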

How the data were processed

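Single-cell tagged reverse transcription libraries of 3 ES plates and 1 Neuro2A plate were compared. The MEF plate of the series entered the filter, the scaling and the fit, but added no residual degree of freedom. Without it, 11640 genes were tested in place of 12271. It also served to gauge fibroblast reads. The authors deposited raw read counts per feature and barcode, described as raw hit counts in the deposited description of the files. The submitters' processing notes name Bowtie. Neither its version nor the build nor the treatment of reads with several matches is stated in them.

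Gene rows, without repeat and mitochondrial rows, were summed per plate over wells with at least 1000 gene reads. Sums were tested with edgeR 4.0.16 (filterByExpr, TMM scaling, quasi-likelihood test, contrast ES minus Neuro2A, Benjamini-Hochberg adjustment, threshold 0.05), with DESeq2 1.42.0 and limma-voom 3.58.1 as alternatives. With 3 ES plates and 1 Neuro2A plate the spread comes from the ES plates alone, and every p-value is relative to that spread, which may be technical. The edgeR script was tested on simulated counts. Floors are 3 reads, and cover counting error only.

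The lists (49, with 1277 distinct members tested) and the comparison itself were chosen with earlier results of these data known. List members could be named whatever their result, those 4-fold apart in every ES plate first. Outside the lists, the 12 genes each way with the largest smallest-plate ratio were named, among 4-fold genes of at least 100 CPM with no clone or model name. Promoters come from RefSeq (GRCm38.p6). A few genes that met these rules are not reported here.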

Additional observations from a re-analysis of the deposited data

How the results depend on the processing

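The count of genes past edgeR's test depended on the setting: it was 0 in both directions in the fit reported and under other scalings, well minima and subtractions. With no filter on low counts it was 76 higher and 6 lower, and with DESeq2 in place of edgeR it was 1077 higher and 163 lower. Leaving out 1 ES plate gave 0 to 1016 higher and 0 to 422 lower genes; the non-zero counts came without ES plate 1, with 1 residual degree of freedom. Genes with every ES plate above Neuro2A numbered 4066 to 4722, and those below 3778 to 4026, with 1 ES plate left out, since fewer plates have to meet the rule. The 4-fold rule then gave 737 to 864 higher and 774 to 859 lower genes. At a level of 100 CPM it gave 300 higher and 436 lower genes, at a ratio of 2 it gave 1348 lower genes and at a ratio of 8 it gave 253. Under the other alternatives all 4 of these counts stayed within 1.5 times the reported ones. The least overlap came from leaving out each gene's largest well, an alternative chosen after seeing the data, which kept 408 of the 647 higher and 368 of the 657 lower genes. Scaling by library size alone moved the median over all genes from 0.72 to 0.89 (log2) and kept 647 of 647 higher and 561 of 657 lower genes; among the genes named above, Slc39a6, H1f0, Rpia, Gnl3l, Dkk3, Dpysl2, Ddit3, Jun and Sox11 then missed the 4-fold rule. Without the deepest well of ES plate 2, Cyp51, H1f0, Hmga2, Lama1, Phc1, Rpia, Slc39a14 and Dpysl2 missed it. Without wells whose barcode ends in G, 553 of 647 higher and 515 of 657 lower genes were kept. Kif11, Idh1, Phc1, Pmvk and Serpinh1 among the higher then missed the rule. So did Casp8, Hist1h1c, Hmox1, Gnl3l, Id4, Ier5, Ddit3, Orc4l, Prdx4 and Sox4 among the lower. Wells with 5000 or more gene reads kept 566 and 490. Pgd, Psmb2, Serpinh1 and Smarca4, and Keap1, Dkk3, Ddit3, Sox4 and Sox11, then missed it. Giving every well equal weight kept 553 of 647 higher and 408 of 657 lower genes, and of the genes named above Slc2a1, Hk2, Tpi1, G6pdx, Pgd, Cyp51, Cdc6, Hmga2, Nqo1, Lama1, Phc1, Rps21 and Slc39a14 among the higher and Rpia, Rb1, Orc4l, H1f0, Hmox1, Prdx6, Gnl3l, Jun, Ddit3, Dpysl2, Slc39a6 and Sox11 among the lower then missed the 4-fold rule. The log2 difference of Hmox1 became 1.45 without wells whose barcode ends in G. With ES plate 3 left out, the median of imprinted genes was -0.74 against 1.71; without ES plate 2 that of the zinc genes was 0.41 against -0.84. No paired analysis was possible because 1 Neuro2A plate shares no set of replicate numbers with the ES plates.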

Other observations

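Reads on repeat features, left out of the gene comparison, differed between the lines for some families. The counts below stand beside shares of 28.8% above and 28.1% below Neuro2A over all tested genes. As shares of each plate's own repeat reads, and among 161 repeat features at 1000 or more per 1000000 on a plate, 48 (29.8%) had every ES plate above Neuro2A and 36 (22.4%) every ES plate below it, 17 (10.6%) and 24 (14.9%) by at least 2-fold. Intracisternal A particles, endogenous retroviruses that move within the cell, were more abundant in Neuro2A, by an amount that depended on the subfamily. IAPLTR2_Mm stood at 529, 345 and 130 per 1000000 repeat reads on ES plates 1, 2 and 3 against 1117 on the Neuro2A plate. The long terminal repeat IAPLTR1_Mm stood at 535, 131 and 389 per 1000000 repeat reads on ES plates 1, 2 and 3 and at 20448 on the Neuro2A plate. The internal part IAPLTR1a_Mm-int stood at 57.6, 1453 and 342 against 17410.1, and IAPLTR1_Mm-int at 322, 914 and 489 against 28027. Early transposons are another family of endogenous retroviruses, and 3 of their 4 features at this level lay on the other side: RLTRETN_Mm-int stood at 7565, 1124 and 3269 in the ES plates against 352, ETnERV at 3133, 557 and 2049 against 170.0 and RLTRETN_Mm at 4251, 1683 and 1340.1 against 375. The joint feature RLTRETN_Mm-int ETnERV overlapped, at 1374, 126 and 631 against 160.2. LTRIS2 (2669, 640.4 and 1179) and RLTR9E (2048, 411 and 477) had 1 read each in Neuro2A. Young LINE elements differed by subfamily. L1Md_Gf (7652, 4808 and 6010.1 against 1529.6), L1Md_T (4525, 5863 and 1308 against 695) and L1Md_A (5400, 10995 and 4247 against 3412) were higher in every ES plate. L1Md_F, L1Md_F2 and L1Md_F3 overlapped. The joint feature L1_Mm L1Md_A was lower in every ES plate (143, 123 and 77.9 against 2065). No test was run on these features, and the labels do not say how reads that match many copies were counted.

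Of the mitochondrial rows, COX1 took a larger share of the mitochondrial reads in every ES plate (129747, 128234 and 141945 per 1000000 of them against 64319 in Neuro2A), as did ND1 (107104, 86195 and 77934 against 48017), while CYTB (42924, 35619 and 45742 against 67786) and ND5 (14481, 11294 and 13871 against 24727) took a smaller one. ATP6, COX2 and the ribosomal RNA Rnr2 differed little (279590.0, 349486 and 238816 against 319145 for the last).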
